A study of Mus musculus with 10 samples.

Results

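The lipid droplet coat and CIDE genes were examined in cold-exposed brown fat with and without the lncRNA Gm15551. They comprised the perilipins Plin1, Plin2, Plin3, Plin4 and Plin5, the CIDE family members Cidea, Cideb and Cidec, and the fat storage-inducing transmembrane genes Fitm1 and Fitm2. The 10 genes were chosen by symbol, and all 10 were found among the 54347 gene records of the count table. Poly A RNA was sequenced from interscapular brown adipose tissue (iBAT), the fat between the shoulder blades that makes heat. Of the 10 C57BL/6N mice, 5 were ΔGm15551 (mice 1, 2, 4, 5 and 7) and 5 were wild type litter mates (mice 2, 3, 5, 6 and 7). ΔGm15551 mice were homozygous for a CRISPR/Cas9 deletion of exon 1 of Gm15551 that was present in every cell of the animal, not only in adipocytes. All mice of both genotypes were 12 weeks old and had been housed singly at 4 °C for 24 h, so that no mouse kept at a warmer temperature entered the comparison, and a chow diet is stated for the ΔGm15551 transcriptome cohort. The total count per mouse ran from 9680976 to 15771170, and 9 of the 10 droplet genes passed the filter on low counts, all except Fitm1.

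Brown adipocytes store triglyceride in many small droplets, each wrapped in a phospholipid monolayer with a coat of proteins. Perilipins on this surface hold lipases off the stored fat or let them act after adrenergic stimulation, while CIDE proteins sit where droplets touch and pass lipid from the smaller to the larger one. FITM proteins are found in the endoplasmic reticulum and take part in the budding of new droplets. In the cold, droplets of brown fat are broken down and refilled at the same time, since their fatty acids are both the fuel and the activator of uncoupled respiration.

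The tissue label was checked first. Ucp1, the uncoupling protein of brown fat, ranged from 5733 to 10964 CPM (counts per 1000000 counts of the library, scaled by the TMM method), and the adipocyte gene Fabp4 averaged 12539 ± 1101 CPM and 12391 ± 1340 CPM in ΔGm15551 and wild type mice (SD, n = 5 each). Gm15551 had 0 counts in all 5 ΔGm15551 mice and 1, 2, 6, 7 and 0 counts in wild type mice 2, 3, 5, 6 and 7. With so few counts the target checked the labels only weakly, since wild type mouse 7 was also at 0. Counts of skeletal muscle genes differed widely between libraries. The summed level of 10 muscle markers ran from 1.06 to 1563 CPM in ΔGm15551 and from 1.36 to 2610 CPM in wild type mice, with over 0.01% of all counts in ΔGm15551 mice 1 and 4 and in wild type mice 5 and 7. The 6 macrophage markers summed to 39.95 to 74.1 CPM in ΔGm15551 and to 47.3 to 80.6 CPM in wild type mice, with Adgre1 at no more than 3.04 CPM, and liver Alb did not exceed 2.38 CPM. Of the 6 white adipocyte markers, which summed to 24.7 to 35.8 CPM in ΔGm15551 and to 33.1 to 40.6 CPM in wild type mice, 5 were tested. None of them was called in edgeR after adjustment, and 2 were lower at an unadjusted p under 0.05 (0.634% of all genes tested were), namely Lep (log2 fold change -1.14, SE 0.31, edgeR unadjusted p = 0.00315, with 4 of 5 ΔGm15551 mice below the wild type range) and Hoxc8 (-0.75, SE 0.34, edgeR unadjusted p = 0.0468), which were named after their values were seen. The fold changes of 2 of the 5 were positive, among them that of Nrip1 (0.33, SE 0.17, edgeR unadjusted p = 0.0804), and the untested Hoxc9 averaged 0.220 and 0.0588 CPM in ΔGm15551 and wild type mice. The part of white fat in the levels of droplet genes was not tested.

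On the GRCm38 build (gene models of GENCODE M21), Plin4 (chr17:56100591-56109803) and Plin5 (chr17:56111601-56117596) lay next to each other on the minus strand with 1797 bp between them, and Plin3 (chr17:56277476-56292873) followed 159.9 kb further on the same strand. Fitm1 (chr14:55575617-55576954, plus strand) and Cideb (chr14:55754050-55758458, minus strand) were 177.1 kb apart. Plin1 lay at chr7:79720218-79732903, Plin2 at chr4:86648386-86670060, Cidec at chr6:113424634-113435760 and Fitm2 at chr2:163466379-163472629, each on the minus strand. The counts of Cideb were uncertain, because 1136 exonic bases overlapped Nop9 on the opposite strand and 72.8% of the 31-base words of its exons also occurred in Nop9. Use of read strand in the counting was not stated. Overlap with an antisense RNA was smaller for Fitm1 (109 bases, Gm15932) and Fitm2 (227 bases, 2310001K24Rik), and Plin4, Cidea and Cidec shared no 31-base word with another gene.

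The stretches in front of the start sites of 4 members are shown, because these members formed the pairs whose levels went together across mice (Plin1 with Plin2, and Plin4 with Cidec). The RefSeq promoter table (GRCm38.p6) held windows for 9 of the 10 members. Each stretch is the part of the 250 bases before the RefSeq start that lies outside the GENCODE gene, written 5′ to 3′ on the strand of the gene, with matches to the motifs searched in capitals.
Plin1 (chr7:79732904-79733026, minus strand): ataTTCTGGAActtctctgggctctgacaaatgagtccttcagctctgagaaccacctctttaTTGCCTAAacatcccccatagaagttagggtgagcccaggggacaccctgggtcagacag
Plin2 (chr4:86670061-86670309, minus strand): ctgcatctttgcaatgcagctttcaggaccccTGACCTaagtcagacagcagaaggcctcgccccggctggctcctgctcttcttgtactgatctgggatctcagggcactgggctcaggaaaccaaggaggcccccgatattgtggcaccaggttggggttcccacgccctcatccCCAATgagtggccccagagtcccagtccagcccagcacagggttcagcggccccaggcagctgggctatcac
Plin4 (chr17:56109804-56110032, minus strand): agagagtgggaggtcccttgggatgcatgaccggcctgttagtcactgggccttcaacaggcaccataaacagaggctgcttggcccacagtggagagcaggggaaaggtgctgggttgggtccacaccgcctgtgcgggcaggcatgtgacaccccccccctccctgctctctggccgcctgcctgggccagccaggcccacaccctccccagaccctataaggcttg
Cidec (chr6:113435761-113436010, minus strand): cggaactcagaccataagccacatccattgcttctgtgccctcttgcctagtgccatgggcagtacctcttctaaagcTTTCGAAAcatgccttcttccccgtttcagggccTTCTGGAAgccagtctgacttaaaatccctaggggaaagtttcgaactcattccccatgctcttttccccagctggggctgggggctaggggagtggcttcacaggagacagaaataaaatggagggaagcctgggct

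Motifs were searched on both strands of the 250-base windows, with 1 window per gene for the 9 members. The C/EBP core TTNNGNAA was found 3 times in Plin1 and 2 times in Cidec, so in 2 of 9 members against 36.85% of 32851 promoters. The nuclear receptor core AGGTCA was found once each in Plin2 and Plin5, against 14.02% of all promoters. No member held the DR1 element bound by PPAR with RXR (that core repeated with 1 base between the copies) or the ERR element TNAAGGTCA, both of which contain that core and were found in 0.03% and 1.14% of all promoters. CCAAT was present in Plin2, Plin3, Plin4 and Plin5 (33.85% of all promoters), TGACG in Fitm1 (17.77%) and TATAAA in Cideb (12.37%). Neither Plin1 and Plin2 nor Plin4 and Cidec had a motif of this search in common. A match says only that these letters lie in the window, not that a factor binds there.

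Together the 10 genes took 0.626 to 0.888% of all counts of a library. Levels of different genes were compared as CPM per kb of merged exons. Cidea, a CIDE protein typical of brown fat, was the most abundant droplet gene with 1949 ± 297 CPM per kb (SD, n = 10 mice), which placed it at percentile 99.83 of the genes tested. Cidec, which drives droplet growth together with perilipin 1, followed with 561 ± 82.0, then Plin2, the coat protein of droplets in most cell types, with 494 ± 65.6 and Plin1, the main perilipin of adipocytes, with 276 ± 43.7 CPM per kb. Plin5, the perilipin of oxidative tissues, stood at 166 ± 25.2 CPM per kb. Lower levels were measured for Plin4, a coat protein of nascent adipocyte droplets (72.9 ± 19.5), for Fitm2 (69.8 ± 10.2) and for Plin3, which moves between cytosol and droplets (29.3 ± 7.35 CPM per kb). Cideb, known from liver and intestine, and Fitm1, known from skeletal muscle, closed the order with 4.97 ± 1.38 and 0.520 ± 0.738 CPM per kb.

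**Figure D1:**
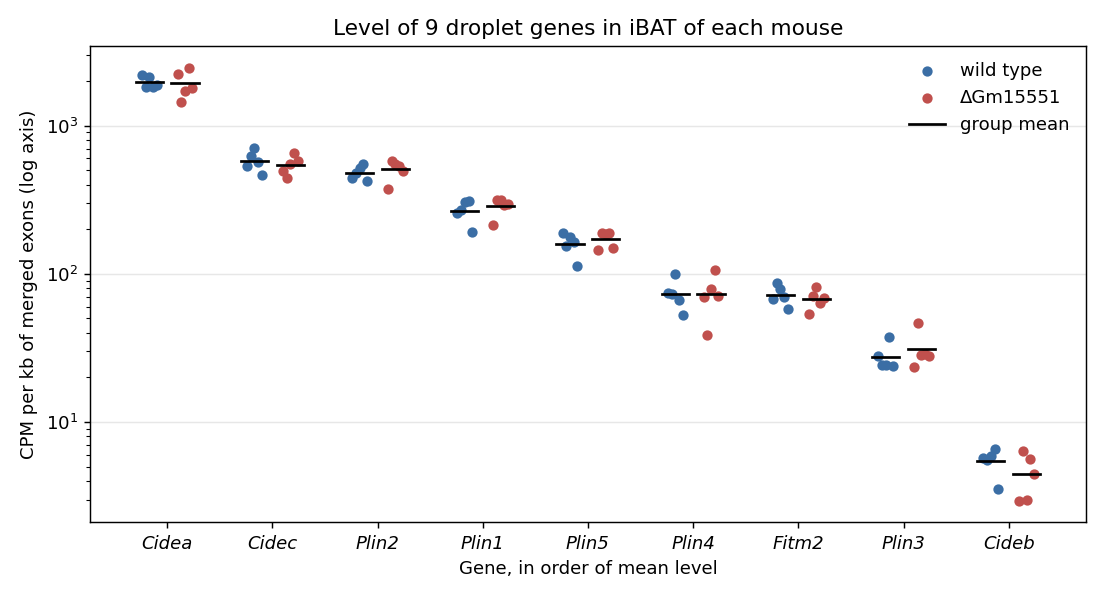
Level of 9 droplet genes in each mouse (CPM per kb of merged exons, log axis), genes ordered by mean level, blue points for the 5 wild type and red points for the 5 ΔGm15551 mice, black lines for group means. Cidea lies near 1949 and Cideb near 4.97 CPM per kb, and the points of the genotypes overlap for every gene shown.

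Neighbours in this order were compared within each mouse by an exact sign-flip permutation test (two-sided), where the smallest p that 10 mice allow is 0.001953. For 7 of the 9 neighbouring pairs the gene ranked higher was higher in 10 of 10 mice (p = 0.001953, Benjamini-Hochberg adjusted p = 0.002511, exact permutation test). Cidea exceeded Cidec 3.47-fold, Plin2 exceeded Plin1 1.79-fold, Plin1 exceeded Plin5 1.67-fold and Plin3 exceeded Cideb 5.99-fold. Cidec was above Plin2 in 8 of 10 mice (exact p = 0.046875, adjusted p = 0.052734), and Plin4 was above Fitm2 in 5 of 10 mice (exact adjusted p = 0.849609), so neither pair was ordered beyond the spread between mice. Sizes of these steps, computed for other lengths after seeing the data, depended on the length used. With the mean or the longest coding transcript in place of merged exons, Plin1 exceeded Plin5 5.11-fold or 2.62-fold, Plin3 exceeded Cideb 8.79-fold or 5.07-fold and Cidea exceeded Cidec 2.14-fold or 3.21-fold. Plin2 then stood above Cidec in all 10 mice, with 919 against 606 CPM per kb of the longest coding transcript.

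Within the CIDE family, Cidea made up 77.6 ± 2.71% of the summed level per kb in ΔGm15551 and 77.2 ± 2.81% in wild type mice (SD, n = 5 each). Among perilipins, Plin2 held 47.3 ± 1.51% and 47.9 ± 2.88%, Plin1 26.8 ± 1.25% and 26.3 ± 1.45%, and Plin5 16.1 ± 1.19% and 15.8 ± 1.90%. Plin3 contributed 2.90 ± 0.640% and 2.75 ± 0.468%, and Plin4 ranged from 3.34 to 9.19% over the 10 mice. The genotype means of each share lay closer together than 1 SD of either group. The shares themselves held for merged exons only. Over the 10 mice, Plin2 made up 47.6%, 60.3% or 55.6% of the perilipin level per kb of merged exons, mean or longest coding transcript, Plin5 16.0%, 5.84% or 10.6%, Plin4 7.06%, 2.47% or 4.46% and Plin3 2.82%, 1.76% or 1.84%. Cidea made up 77.4%, 67.9% or 76.0% of the CIDE level in the same order.

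To ask whether loss of Gm15551 went along with a change of the droplet coat, the genotypes were compared by the quasi-likelihood test of edgeR across 13732 genes. At an adjusted p under 0.05, 0 of the 9 droplet genes tested and 0 of all genes (0.0%) were called. At an unadjusted p under 0.05 the counts were 0 of 9 droplet genes and 219 of all genes (1.59%, with 0.961% higher and 0.634% lower in ΔGm15551), and the DESeq2 Wald test gave 0 of 9 and 228, with no gene called after adjustment. CPM values of the genotypes overlapped for all 9 droplet genes tested, while 0.32% of all genes tested did not overlap. Every droplet gene had the same adjusted p of 0.999738 in edgeR. Log2 fold changes (ΔGm15551 minus wild type) ran from -0.29 to 0.17 with a median of -0.01, against a median of -0.00 over all genes tested. In bulk tissue, fewer cells of a type and less RNA per cell cannot be told apart.

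**Figure D2:**
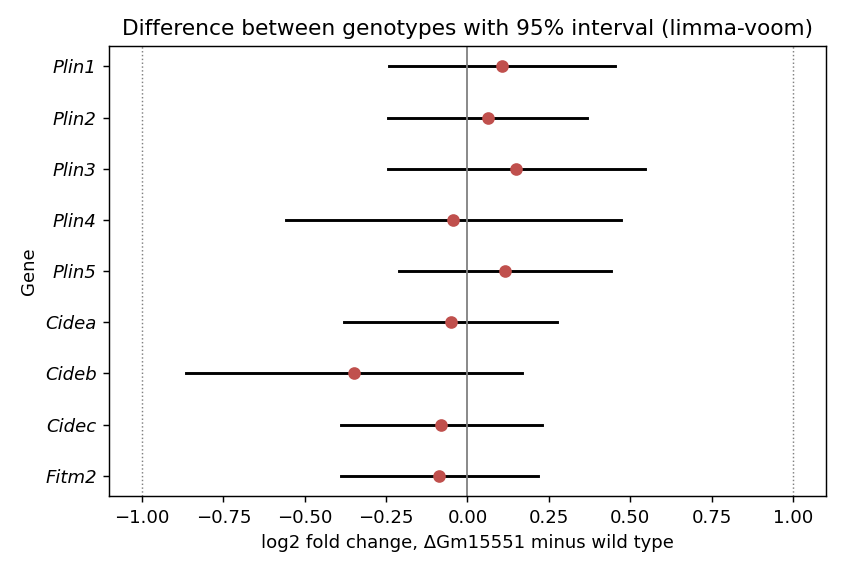
Log2 fold change of 9 droplet genes between ΔGm15551 and wild type iBAT (points, limma-voom) with 95% confidence intervals (bars, n = 5 mice each). All intervals include 0 and lie between the dotted lines that mark a 2-fold change either way, with the widest for Cideb (-0.87 to 0.17) and Plin4 (-0.56 to 0.47).

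The adipocyte perilipin came first. In the order ΔGm15551 mice 1, 2, 4, 5 and 7, Plin1 was measured at 988, 1468, 1466, 1343 and 1376 CPM, and in the order wild type mice 2, 3, 5, 6 and 7 at 1198, 1258, 1410.3, 1450.3 and 892 CPM. One mouse of each genotype was low, ΔGm15551 mouse 1 and wild type mouse 7, and the other mice overlapped. The log2 fold change was 0.10 (SE 0.16), with a 95% confidence interval of -0.24 to 0.45 from limma-voom. The same 2 mice were the lowest for Plin2, with ΔGm15551 mouse 1 below wild type mouse 7. Plin2 was measured at 1302, 2013, 1945, 1877 and 1747 CPM in ΔGm15551 and at 1551, 1686, 1828, 1922 and 1475 CPM in wild type mice (same order of mice here and in the following). Its log2 fold change was 0.07 (SE 0.14), with an interval of -0.24 to 0.37.

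Plin5 tethers droplets to mitochondria and is high where fat is burned. It was measured at 302, 395, 389, 393 and 311 CPM in ΔGm15551 and at 392, 323, 371, 345 and 237 CPM in wild type mice. The lowest value again belonged to wild type mouse 7, and the other values were interleaved (log2 fold change 0.10, SE 0.15, interval -0.21 to 0.44). The ratio of Plin5 to Plin1 in CPM ranged from 0.226 to 0.328 over the 10 mice, and its mean log2 value differed by 0.01 between genotypes (exact permutation p = 0.93651, two-sided, 252 assignments). For Plin2 to Plin1 the ratio ranged from 1.27 to 1.65, with a log2 difference of -0.04 between genotypes (exact permutation p = 0.78571, adjusted over 4 ratios p = 0.93651). The fourth ratio, Fitm1 to Fitm2, differed by 0.18 (exact permutation p = 0.85714, adjusted p = 0.93651), a value that depends on the prior count because Fitm1 was at or near 0 in most libraries.

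The remaining perilipins, Plin3 and Plin4, varied more between mice. Plin3 was measured at 89.3, 176, 108, 108 and 105 CPM in ΔGm15551 and at 105, 92.3, 91.4, 143 and 90.9 CPM in wild type mice. A single mouse of each genotype, ΔGm15551 mouse 2 and wild type mouse 6, stood above the others, and the rest lay between 89.3 and 108 CPM. The log2 fold change of 0.17 (SE 0.19, interval -0.25 to 0.55) rested on ΔGm15551 mouse 2, without which it was -0.03. Plin4 was measured at 401, 225, 459, 609 and 406 CPM in ΔGm15551 and at 426, 420, 575, 384 and 306 CPM in wild type mice. ΔGm15551 mice supplied both the lowest and the highest value, in mouse 2 and mouse 5, and the genotype means were 420 ± 138 and 422 ± 97.8 CPM (log2 fold change -0.01, SE 0.23, interval -0.56 to 0.47). The biological coefficient of variation of Plin4 was at percentile 79.04 of all genes tested and that of Plin3 at percentile 65.01, whereas Plin1, Plin2 and Plin5 lay between 34.41 and 46.23.

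Of the CIDE family, Cidea was measured at 2490.4, 1608, 1913, 2745 and 2000.4 CPM in ΔGm15551 and at 2428, 2036, 2368, 2037 and 2110.1 CPM in wild type mice. The ΔGm15551 values reached beyond the wild type range on both sides, with 2 mice above and 3 mice below it, and the SD was 459 CPM against 188 CPM. The spread was not tested, and the means did not differ beyond it (log2 fold change -0.03, SE 0.15, interval -0.38 to 0.28). Cidec was measured at 918, 826, 1027, 1221 and 1066 CPM in ΔGm15551 and at 983, 1153, 1301, 1059 and 866 CPM in wild type mice. Here 1 ΔGm15551 mouse, mouse 2, fell below the wild type range (log2 fold change -0.08, SE 0.14, interval -0.39 to 0.23). In CPM, Cidea exceeded Cidec 1.77 to 2.71-fold in single mice, and this ratio differed by 0.03 on the log2 scale between genotypes (exact permutation p = 0.81746, adjusted p = 0.93651).

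Cideb was rare in iBAT, with 51 to 151 counts per library. It was measured at 4.39, 9.43, 4.45, 8.42 and 6.62 CPM in ΔGm15551 and at 8.49, 8.29, 8.78, 9.81 and 5.22 CPM in wild type mice. ΔGm15551 mice 1 and 4 and wild type mouse 7 were the lowest, and these 3 libraries were among the 4 with the most muscle counts. The log2 fold change was -0.29 (SE 0.23, interval -0.87 to 0.17, edgeR unadjusted p = 0.237), the largest of the droplet genes tested, and it was -0.12 without the 4 libraries, -0.51 in limma-voom with quality weights and -0.30 with the muscle genes' mean log2 CPM as a covariate. The part of reads from Nop9 in this value was not tested. Nop9 itself averaged 14.4 ± 1.70 CPM and 13.2 ± 1.70 CPM in ΔGm15551 and wild type mice (SD, n = 5 each).

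Fitm2, the FITM member of adipose tissue, was measured at 214, 279, 324, 252 and 273 CPM in ΔGm15551 and at 268, 342, 311, 279 and 228 CPM in wild type mice. As for Plin1, Plin2 and Plin5, the lowest values were those of ΔGm15551 mouse 1 and wild type mouse 7 (log2 fold change -0.09, SE 0.14, interval -0.39 to 0.22). Of 7 brown adipocyte markers, these 2 mice were the 2 lowest in 3, namely Ucp1 (5733 and 6421 CPM), Dio2 and Pank1, and the 2 highest in 1, Cox8b (805 and 794 CPM). Of 5 common adipocyte markers, they were the 2 lowest in 0 and the 2 highest in 1, Fabp4 (13622 and 14460 CPM). By summed level, with rank 1 the highest of the 10 mice, the 7 brown adipocyte markers ranked 10 and 9 in them (10175 and 10780 CPM). The 5 common adipocyte markers ranked 3 and 2 (27438 and 27959 CPM). These 2 mice held 0.0734 and 0.263% of their counts in muscle genes. Both had the highest summed levels of the 10 mice for 5 endothelial markers (1263 and 1163 CPM, against 692 to 1065 CPM in the other mice) and for 5 red blood cell genes (1747 and 2538 CPM, against 612 to 1431 CPM). ΔGm15551 mouse 4, with 0.158% muscle counts, ranked 5 and 7 in the endothelial and red blood cell sums and had the highest Fitm2 level of its genotype. Whether RNA of these other cell types had a part in the low values of the 2 mice was not tested.

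Fitm1, the FITM member of skeletal muscle, was near the limit of detection. It had 7, 0, 22, 2 and 1 counts in ΔGm15551 and 0, 1, 9, 0 and 19 counts in wild type mice, so 6 of the 10 libraries did not exceed the 3 counts that a count of 0 allows (0.190 to 0.310 CPM, counting error only). The genotypes did not differ, with 0.475 ± 0.677 and 0.535 ± 0.833 CPM (exact permutation p = 0.86508, two-sided). Its counts went with muscle content. In the 4 libraries with over 0.01% muscle counts Fitm1 had 7 to 22 counts, and in the other 6 libraries 0 to 2 counts. No other droplet gene had separate ranges in these sets of libraries. Actin of skeletal muscle, Acta1, ran from 37.0 to 499 CPM in the 4 libraries and from 0 to 13.1 CPM in the other 6, creatine kinase Ckm from 28.7 to 380.3 and from 0 to 6.73 CPM, and fast myosin Myh4 from 71.0 to 716 and from 0 to 22.8 CPM. The libraries were divided by the muscle markers and not by Fitm1, and the division was read as a description with no test.

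**Figure D3:**
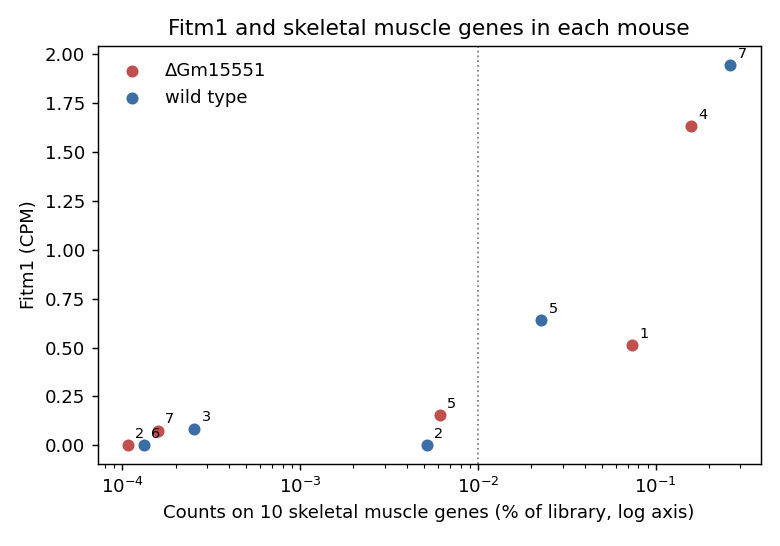
Fitm1 level (CPM) against the share of counts on 10 skeletal muscle genes (percent of library, log axis) in each mouse, red for ΔGm15551 and blue for wild type, numbers for mice. The dotted line marks 0.01%, and the 4 libraries to its right hold 7 to 22 Fitm1 counts against 0 to 2 in the 6 to its left.

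To see whether droplet genes varied together, log2 CPM values were correlated over the 10 mice for all 36 pairs of the 9 genes tested, with 100000 permutations per pair and Benjamini-Hochberg adjustment over the pairs. All pairs shared the same libraries, scaled in the same way. Of the 36 coefficients 28 were positive, 13 exceeded 0.5 and 2 were under -0.5, and 2 pairs were called. The share of such coefficients over pairs of all genes was not computed, so these counts do not set droplet genes apart. Among 13079 genes outside the droplet list, 1113 had an r above 0.8 with Plin1 and 654 with Plin2. Plin1 and Plin2 had a Pearson r of 0.91 (permutation p = 0.00072, adjusted p = 0.013) and a Spearman rho of 0.95 (permutation p = 0.00011, adjusted p = 0.00396). Without the 2 mice farthest from the median of Plin1, ΔGm15551 mouse 1 and wild type mouse 7, r was 0.93. With the genotype means removed it was 0.91.

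**Figure D4:**
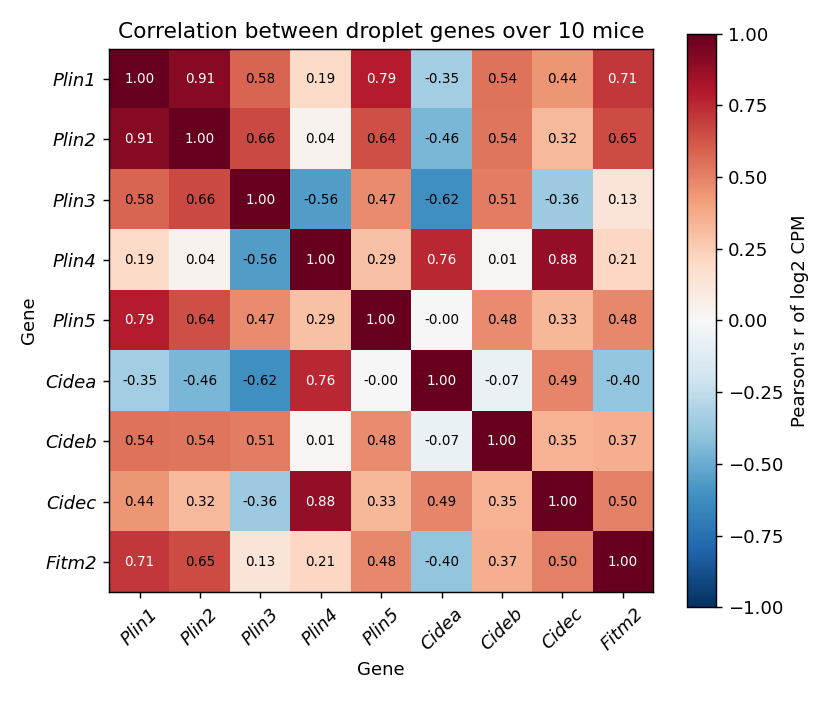
Pearson's r of log2 CPM between 9 droplet genes over 10 mice (color scale from -1 to 1, value printed in each cell). The highest coefficients off the diagonal are those of Plin1 with Plin2 (0.91) and Plin4 with Cidec (0.88), and the lowest is that of Plin3 with Cidea (-0.62).

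Plin4 and Cidec were the other pair called, with a Pearson r of 0.88 (permutation p = 0.00063, adjusted p = 0.013). By rank the relation was weaker, with a Spearman rho of 0.77 (permutation p = 0.0122, adjusted p = 0.11), and without ΔGm15551 mice 2 and 5, the extremes of Plin4, r was 0.82. The call depended on single mice. With 9 mice it was lost without ΔGm15551 mouse 2 (r = 0.85, permutation adjusted p = 0.0957), ΔGm15551 mouse 5 (r = 0.85, permutation adjusted p = 0.057) or wild type mouse 7 (r = 0.86, permutation adjusted p = 0.0569). Without ΔGm15551 mouse 2 the call of Plin1 and Plin2 was lost too (r = 0.90, permutation adjusted p = 0.0594). By rank, Plin2 and Plin3 formed another pair called (rho 0.85, permutation adjusted p = 0.0493), which was not called by Pearson's r (0.66, permutation adjusted p = 0.201).

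**Figure D5:**
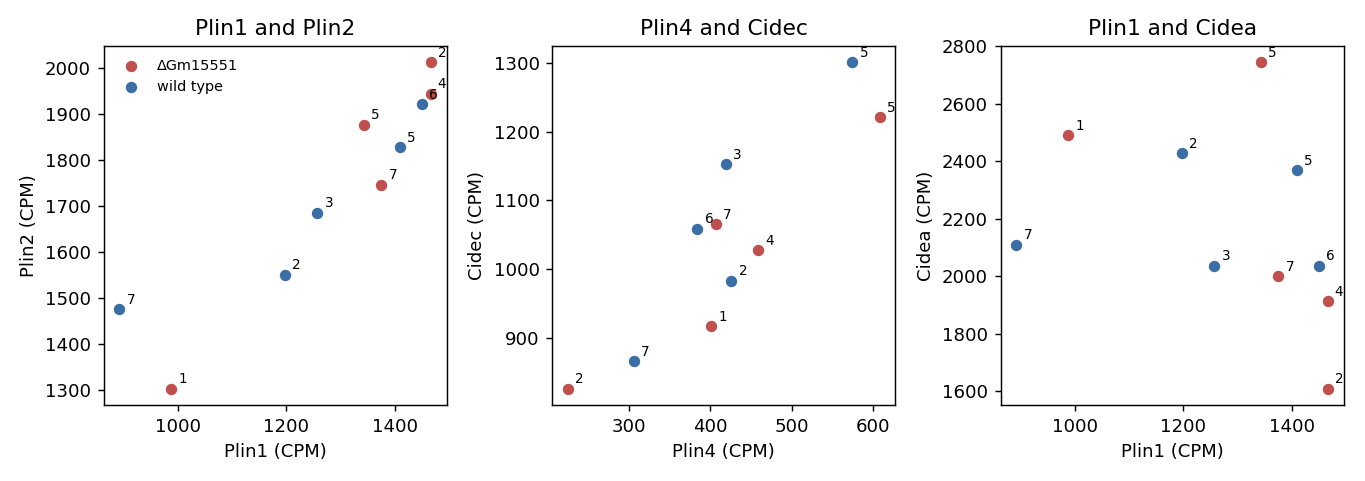
CPM of 3 pairs of droplet genes in each mouse, red for ΔGm15551 and blue for wild type, numbers for mice. Plin2 rises with Plin1 and Cidec with Plin4 in both genotypes, whereas Cidea spreads from 1608 to 2745 CPM without following Plin1.

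Other coefficients rested on few mice. Plin1 and Plin5 had a Pearson r of 0.79 (permutation p = 0.00959, adjusted p = 0.112; rho 0.61, permutation p = 0.0668, adjusted p = 0.219), which was 0.11 without ΔGm15551 mouse 1 and wild type mouse 7. Plin4 and Cidea had an r of 0.76 (permutation p = 0.0124, adjusted p = 0.112; rho 0.43, permutation p = 0.219, adjusted p = 0.464), which was 0.23 without ΔGm15551 mice 2 and 5. The most abundant CIDE gene did not go with the main adipocyte perilipin, since Cidea and Plin1 had an r of -0.35 (permutation p = 0.317, adjusted p = 0.447; rho -0.65, permutation p = 0.0507, adjusted p = 0.197) and of -0.52 without ΔGm15551 mouse 1 and wild type mouse 7. The sequences shown above for the pairs called had no searched motif in common within a pair. The animal identification numbers in the labels, which are not the replicate numbers used here, were far higher for wild type mice 5, 6 and 7 than for the other 7 mice. Whether this marks a batch is not stated, and 3 mice of 1 genotype are too few for a value of their own. In the other 7 mice r was 0.98 for Plin1 and Plin2 and 0.85 for Plin4 and Cidec.

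The genes most like each member were taken as the 2 genes outside the droplet list with the highest Pearson r over the 10 mice, among 13079 genes that averaged 1 CPM or more. They were Snap47 (r = 0.99) and Ppp6r1 (0.99) for Plin1, Lrfn3 (0.98) and Trpc4ap (0.97) for Plin2, Gtf2i (0.97) and Aoc3 (0.97) for Plin3, Lrrc1 (0.93) and Smyd5 (0.92) for Plin4, and Zscan20 (0.95) and Mapre3 (0.94) for Plin5. For Cidea they were Mcrs1 (0.95) and Fbxw9 (0.93), for Cideb Abcb6 (0.92) and Lmln (0.91), for Cidec Thoc6 (0.96) and Pus1 (0.90), and for Fitm2 9530068E07Rik (0.98) and Ddx1 (0.97). Likeness of this size was common for some members and rare for others. An r above 0.8 was reached by 1113 genes for Plin1, 994 for Fitm2 and 654 for Plin2, against 50 for Plin4, 53 for Cidec and 36 for Cideb. These coefficients are a description and carry no test.

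Partners of the droplet coat were followed in 4 lists. Among the 7 lipases and lipase regulators, 0 were called in either direction and 0 had an unadjusted p under 0.05 in edgeR, and the median log2 fold change was 0.12. G0s2, the inhibitor of the triglyceride lipase ATGL, was measured at 239, 279, 149, 303 and 181 CPM in ΔGm15551 and at 263, 176, 165, 179 and 183 CPM in wild type mice, which overlapped (log2 fold change 0.25, SE 0.20). Pnpla2, which encodes ATGL, had a log2 fold change of 0.18 (SE 0.15), its coactivator Abhd5, which perilipin 1 holds at the droplet, 0.11 (SE 0.16), and the hormone-sensitive lipase gene Lipe 0.12 (SE 0.15). Hilpda, another ATGL inhibitor, was low with 3.35 ± 0.453 CPM and 2.92 ± 0.782 CPM in ΔGm15551 and wild type mice. Of the 7 fold changes 6 were positive, and that of Pnpla3 was -0.22 (SE 0.21).

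Of the 11 genes tested for triglyceride synthesis and droplet formation, 0 were called in either direction and 0 had an unadjusted p under 0.05 in edgeR (median log2 fold change -0.04). Lpin1, a phosphatidate phosphatase of this pathway, had the smallest p of the list. It was measured at 386, 458, 675, 538 and 684 CPM in ΔGm15551 and at 613, 749.5, 865, 658 and 593 CPM in wild type mice. In 3 ΔGm15551 mice it lay below the wild type range (log2 fold change -0.34, SE 0.17, edgeR unadjusted p = 0.0698). Over 22 alternatives Lpin1 ran from -0.44 to -0.24 and was never called (lowest edgeR unadjusted p = 0.0325, without ΔGm15551 mouse 7). Bscl2, which encodes seipin at the site of droplet budding, had a log2 fold change of 0.12 (SE 0.11), and Dgat2, which makes triglyceride, of -0.09 (SE 0.22). The sign of Dgat2 changed over the alternatives (-0.24 to 0.29).

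Among 12 further genes of the droplet surface, 0 were called in either direction and 0 had an unadjusted p under 0.05 in edgeR (median log2 fold change 0.02). Rab18, a small GTPase of droplets, had a log2 fold change of -0.14 (SE 0.17). Clstn3, whose locus also encodes a droplet protein of brown adipocytes that gene-level counts cannot separate, had one of 0.08 (SE 0.12).

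The 10 transcription factors and coactivators known to act on droplet genes were tested as the last list, with 0 called in either direction, 0 at an unadjusted p under 0.05 in edgeR and a median log2 fold change of 0.05. Srebf1, a factor of lipid synthesis, was measured at 231, 184, 239.7, 234 and 306 CPM in ΔGm15551 and at 279, 279, 395, 269.9 and 259.98 CPM in wild type mice. In 4 of 5 ΔGm15551 mice it lay below the wild type range (log2 fold change -0.31, SE 0.16, edgeR unadjusted p = 0.0651). Ppard, a nuclear receptor for fatty acids, was measured at 26.6, 45.3, 41.2, 41.8 and 41.8 CPM in ΔGm15551 and at 33.1, 33.5, 36.4, 34.7 and 26.3 CPM in wild type mice. It lay above the wild type range in 4 of 5 ΔGm15551 mice (log2 fold change 0.26, SE 0.14, edgeR unadjusted p = 0.0908). Over 22 alternatives neither gene was called. Ppard ran from 0.19 to 0.44 (lowest edgeR unadjusted p = 0.00476, without ΔGm15551 mouse 1). Srebf1 ran from -0.42 to -0.19 (lowest edgeR unadjusted p = 0.0183, without ΔGm15551 mouse 7). Pparg, the master regulator of adipocytes, and Ppargc1a, the cold-induced coactivator, had log2 fold changes of 0.05 (SE 0.15) and -0.07 (SE 0.28). Both changed sign over the alternatives (-0.07 to 0.25 and -0.46 to 0.15). Adipoq, a general adipocyte gene, averaged 379.7 ± 41.8 and 329.6 ± 35.9 CPM in ΔGm15551 and wild type mice, with a log2 fold change of 0.20 (SE 0.12). This was the highest of the 5 common adipocyte markers, of which 2 had positive fold changes (median -0.05, lowest -0.33).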

How the data were processed

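Poly A RNA of iBAT from 10 mice, 5 per genotype, was measured. The values deposited by the authors were estimated counts (expected counts) per gene in whole numbers, which per the labels and the study's methods came from cutadapt-trimmed paired-end reads quantified with Salmon against GENCODE M22 on GRCm38. Versions of these tools and the use of strand are not given in the sources used here. The count test was that of edgeR 4.0.16 in R 4.3.3 (filterByExpr, minimum count 10, minimum total count 15, TMM scaling, robust quasi-likelihood test, genotype as the only term). This left 13732 of 54347 genes, with Benjamini-Hochberg adjustment over them and a threshold of 0.05. Standard errors came from the F statistic and 95% confidence intervals from limma 3.58.1 (voom). log2 CPM had a prior count of 2. DESeq2 1.42.0 was an alternative. In counts simulated over 13732 genes, with the same dispersion of 0.05 for every gene and 200 genes changed, the test recovered 74% of 2-fold and 100% of 4-fold changes. The simulation held neither the spread of single genes nor the differences in muscle RNA between libraries. These percentages are therefore not the power for single droplet genes.

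GENCODE M21, also on GRCm38, gave exon lengths and positions (99.5% of gene IDs matched), and RefSeq the promoters. Shared words were counted over 31 bases on both strands. Single values were compared by exact permutation over 252 assignments. The depth of 9680976 to 15771170 counts limits precision for rare genes, and floors cover counting error only. Within each genotype, no library was a copy of another (smallest chi-square per degree of freedom 11.34). The members and gene lists were chosen with earlier results of these data known. The genes named were the 10 members, the target, a few marker and pathway genes written down together with the lists, the 2 genes of each pathway list with the smallest unadjusted p, and the 2 genes most like each member. Lep, Hoxc8, Pnpla3 and a few other list genes were named after their values were seen. Alternatives covered scaling, filters, tools, exon length, a muscle score covariate, single mice and groups of mice left out, and the replicate number as a block. The replicate numbers did not pair the mice by the labels.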

Additional observations from a re-analysis of the deposited data

Results flagged for a closer look

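In 28 groups of 5 values (each droplet gene and each ratio in each genotype), a value was picked out where its gap to the nearest of the others, divided by the range of the group, exceeded Dixon's 95% critical value of 0.71. Chance picks out about 1 in 20 groups, here 1.4, and 4 values were picked out. Plin1 in ΔGm15551 mouse 1, at 988 CPM, lay below the 1343 to 1468 CPM of the other mice (gap to range 0.741). Plin3 in ΔGm15551 mouse 2, at 176 CPM, lay above 89.3 to 108 CPM (0.780). Plin3 in wild type mouse 6, at 143 CPM, lay above 90.9 to 105 CPM (0.718). The log2 ratio of Plin2 to Plin1 in wild type mouse 7, at 0.73, lay above 0.37 to 0.42 (0.858). Causes of these values were not tested.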

How the results depend on the processing

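None of the 9 droplet genes was called under any of 22 alternatives, where the lowest adjusted p was 0.835 (Cideb), and the lowest unadjusted p was 0.0238 (Cideb, limma-voom with quality weights, log2 fold change -0.514). The sign of Plin2, Plin5 and Cidec held in all 22, though values came close to 0. Plin4 turned to 0.0026 with library totals alone and to 0.0107 without the 4 muscle-rich libraries. The replicate numbers 2, 5 and 7 occur in both genotypes, but the deviations of same-numbered mice correlated at -0.07, 0.05 and -0.40 and no mouse was most like its own number. No pairing was seen in these values, but 3 pairs are too few to exclude that same-numbered mice share more than a number. With the replicate block in these 6 mice the log2 fold change of Cideb was 0.136 (0.114 in the same mice without the block) and that of Fitm2 0.0049, those of Plin1, Plin2, Plin3, Plin5 and Cidea were 0.282, 0.219, 0.398, 0.160 and -0.153 (0.257, 0.215, 0.437, 0.134 and -0.122 without the block), and the log2 ratios differed by -0.138 (Cidea to Cidec), -0.121 (Plin5 to Plin1) and -1.53 (Fitm1 to Fitm2), where 3 pairs cannot reach a p below 0.25. The block changed no call, and 397 of all genes had an unadjusted p under 0.05 against 552 without it. Wild type mice 5, 6 and 7 have identification numbers in the labels that stand apart. No ΔGm15551 mouse has such a number, so it is partly confounded with genotype. Without these 3 mice the log2 fold change was 0.0027 for Plin5, 0.135 for Plin2, 0.2465 for Plin3 and -0.182 for Fitm2. Log2 ratio differences were then -0.101 (Plin5 to Plin1), 0.0203 (Plin2 to Plin1) and 1.31 (Fitm1 to Fitm2). Leaving out the muscle-rich libraries gave log2 ratio differences of -0.0103 (Cidea to Cidec), -0.0555 (Plin5 to Plin1), 0.0272 (Plin2 to Plin1) and 0.445 (Fitm1 to Fitm2). Taken between medians, Plin2 to Plin1 differed by 0.0011 and Fitm1 to Fitm2 by 0.798. Leaving out 1 mouse at a time gave log2 fold changes of -0.0014 to 0.187 for Plin1, -0.0298 to 0.302 for Plin3, -0.184 to 0.150 for Plin4, -0.136 to 0.0574 for Cidea, 0.0203 to 0.164 for Plin2, 0.0015 to 0.167 for Plin5 (lowest without wild type mouse 7), -0.164 to -0.0057 for Cidec (nearest 0 without wild type mouse 5), -0.166 to -0.0161 for Fitm2 and -0.450 to -0.172 for Cideb, and log2 ratio differences of -0.0599 to 0.0966 (Cidea to Cidec), -0.0344 to 0.0815 (Plin5 to Plin1), -0.0643 to 0.0239 (Plin2 to Plin1) and -0.276 to 0.857 (Fitm1 to Fitm2, which depends on the prior count). The 2 correlated pairs became 1 in the other 7 mice and 1 without the 2 mice farthest from the median, where fewer mice were used, and 0 to 3 with 1 mouse left out. Of the 9 steps of the level order, 8 or 9 were kept under each alternative. Depth limits Fitm1 and Cideb most.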
